A study of Mus musculus with 40 samples.

Results

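Cps1, Otc, Ass1, Asl, Arg1 and Nags of the urea cycle, Tat and Hpd of tyrosine breakdown, and the transaminase Got1 were followed in the livers of mice that lack Nampt in hepatocytes. These 9 genes were taken by name from a table of 55487 genes, and each passed the filter on low counts that left 20297 genes for testing. RNA of whole liver from female mice of the C57BL/6JBomTac background was depleted of ribosomal RNA and sequenced, with 1 library for each mouse. Hepatocyte-specific Nampt knockout mice (HNKO, labelled KO) carried Nampt fl/fl alleles and 1 copy of Alb-Cre, a recombinase driven by the albumin promoter, and the WT mice were floxed littermates. The mice were 9 weeks old when they were moved from a breeding chow to a purified diet (PD), which they ate for 3, 6, 12 or 21 days. The labels list these days as age, and the study's methods give them as days on PD. The WT groups held 5, 4, 5 and 5 libraries and the HNKO groups 5, 5, 6 and 3 at those days, and 2 further HNKO libraries of day 21 (17 and 18) are described as failing quality control and are given as values only. All mice of the comparison ate the same diet, so the design compares genotypes at each length of feeding.

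The urea cycle turns ammonia into urea in hepatocytes. CPS1 and OTC work in mitochondria, ASS1, ASL and ARG1 in the cytosol, and NAGS makes the activator that CPS1 needs. Amino acid breakdown delivers the nitrogen, by transaminases such as TAT and GOT1, and the carbon skeletons are oxidised by enzymes such as HPD. NAMPT makes nicotinamide mononucleotide, a precursor of NAD+, and several dehydrogenases of these pathways use NAD+ as a cofactor. The urea cycle genes are known to be highest in periportal hepatocytes, and Tat is a textbook target of glucocorticoids and glucagon.

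By gene annotation of GRCm38 (GENCODE M21), Cps1 lies at chr1:67123026-67231259, Otc at chrX:10252305-10321024, Ass1 at chr2:31470207-31520672, Asl at chr5:130011258-130029247, Arg1 at chr10:24915221-24927484, Nags at chr11:102145513-102149477, Tat at chr8:109990437-109999803, Hpd at chr5:123171807-123182727 and Got1 at chr19:43499752-43524605. Promoter windows of 300 bases, from 250 before to 50 after the start site, were found in RefSeq (GRCm38.p6) for 6 of the 9 genes. Those of Otc and Hpd are shown because these genes gave the smallest adjusted p-values of the 9, and those of Tat and Got1 because the letters searched for were found there more than once. CCAAT boxes (CCAAT on either strand, so also read as ATTGG) are in capitals, and each sequence is written 5′ to 3′ on the strand of its gene.
Otc, chrX:10252055-10252354, plus strand: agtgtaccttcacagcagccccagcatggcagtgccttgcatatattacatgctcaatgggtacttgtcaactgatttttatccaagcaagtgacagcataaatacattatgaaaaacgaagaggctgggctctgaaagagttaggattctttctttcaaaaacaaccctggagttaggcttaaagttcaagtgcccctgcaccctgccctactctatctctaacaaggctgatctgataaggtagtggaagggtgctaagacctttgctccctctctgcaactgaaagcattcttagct
Hpd, chr5:123182674-123182973, minus strand: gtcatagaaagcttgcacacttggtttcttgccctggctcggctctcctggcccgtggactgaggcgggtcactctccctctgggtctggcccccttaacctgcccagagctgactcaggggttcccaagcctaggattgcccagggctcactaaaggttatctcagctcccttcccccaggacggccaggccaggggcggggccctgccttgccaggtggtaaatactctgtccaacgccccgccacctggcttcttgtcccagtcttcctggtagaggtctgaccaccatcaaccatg
Tat, chr8:109990186-109990485, plus strand: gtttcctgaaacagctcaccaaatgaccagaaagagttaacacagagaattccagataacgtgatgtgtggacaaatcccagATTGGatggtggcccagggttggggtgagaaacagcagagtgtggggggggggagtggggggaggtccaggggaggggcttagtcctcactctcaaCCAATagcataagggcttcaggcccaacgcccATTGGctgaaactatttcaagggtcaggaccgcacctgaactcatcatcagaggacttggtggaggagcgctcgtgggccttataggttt
Got1, chr19:43524556-43524855, minus strand: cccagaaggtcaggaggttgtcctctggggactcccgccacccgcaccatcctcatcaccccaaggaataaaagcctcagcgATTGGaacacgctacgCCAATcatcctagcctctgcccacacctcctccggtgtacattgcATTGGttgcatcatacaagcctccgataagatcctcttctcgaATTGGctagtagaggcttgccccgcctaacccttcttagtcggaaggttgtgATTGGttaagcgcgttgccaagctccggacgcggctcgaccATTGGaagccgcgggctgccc
The letters searched on both strands were TATAAA for the TATA box, held by 13.6% of the 32851 promoter windows of the same length, CCAAT for the CCAAT box, held by 37.4%, TGACG for the core of a CREB site, held by 20.8%, TTGCNNAA for a C/EBP site, held by 10.8%, and TGTTCT for the core of a glucocorticoid receptor site, held by 19%. The Got1 window held 6 CCAAT boxes and the Tat window 3, and the Nags window held 1 CREB core. Those of Otc, Ass1 and Hpd held none of these letters, which says only that the letters are not in these windows.

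Total counts of the 38 libraries ranged from 16151037 to 64181492, and every one of the 9 genes had at least 654 counts in each. Levels are given as log2 CPM, the log2 of counts relative to library size (CPM) after scaling of the libraries by TMM. Nampt itself was called lower in HNKO at days 3, 6 and 12, with log2 fold changes of -0.93, -0.90 and -0.82 (adjusted p = 0.0193, 0.0128 and 0.0208), and had -0.69 at day 21 (adjusted p = 0.161). HNKO and WT libraries overlapped only at day 6. The defining hepatocyte markers Alb, Ttr and Apob were present in every library. Whole liver holds other cells too: the 6 cholangiocyte and oval cell markers summed to a log2 CPM of 5.10 to 5.63 in WT and 6.74 to 9.56 in HNKO libraries, and all 6 were called higher in HNKO averaged over days. Of the 7 stellate cell and myofibroblast markers, 6 were called higher. In whole liver RNA, fewer hepatocytes and less RNA of a gene per hepatocyte cannot be told apart.

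Cps1, the carbamoyl phosphate synthetase of the first step, was the most abundant of the 9 genes per length, at 1360 ± 235 CPM per kilobase of exon in WT and 1150 ± 361 in HNKO (SD, n = 19 each). Then came Hpd at 1090 ± 348 in WT, Ass1 at 651 ± 143, Arg1 at 613 ± 129, Tat at 482 ± 130, Got1 at 130 ± 40.7, Otc at 110 ± 15.4, Asl at 86.9 ± 17.1 and Nags at 15 ± 2. The ranges of mean ± SD of neighbours in this order overlapped in WT, apart from the steps from Tat to Got1 and from Asl to Nags.

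Across the 9 genes, 34 of the 36 log2 fold changes of HNKO against WT (9 genes at 4 days) lay below 0, and the other 2 were Nags at 0.14 and Tat at 0.05, both at day 12. With scaling by total counts alone, 7, 9, 4 and 8 of the 9 lay below 0 at days 3, 6, 12 and 21. Under that scaling the median of all genes lay above 0 at each day. None of the 9 genes passed the test at any single day (edgeR quasi-likelihood test, Benjamini-Hochberg adjusted p under 0.05 over all tested genes), against 1.71%, 4.37%, 3.27% and 0.916% of all genes called lower and 2.95%, 8.42%, 4.56% and 2.21% called higher at days 3, 6, 12 and 21. At an unadjusted p under 0.05, 1, 4, 1 and 1 of the 9 were lower, against 9.35%, 11.7%, 11.3% and 7.63% of all genes. DESeq2 called 1 of the 9 at day 3 (Otc), 1 at day 6 (Asl) and 0 at days 12 and 21. With the series of library numbers (1 to 21 or 22 to 41) as a covariate, edgeR called 2 at day 6, Otc (adjusted p = 0.0456) and Hpd (0.0485). Median log2 fold changes of the 9 genes were -0.22, -0.51, -0.18 and -0.28, beside medians of 0.01, -0.01, 0 and -0.01 over all genes. With total counts alone they were -0.09, -0.32, 0.02 and -0.10, beside medians of 0.18, 0.20, 0.19 and 0.19 over all genes. Single libraries moved them: at day 3 the median was -0.10 without HNKO 23, -0.11 without HNKO 2 and -0.40 without HNKO 4, and at day 21 it was -0.08 without HNKO 37, -0.17 without WT 41 and -0.60 without HNKO 38. At days 6 and 12 it ranged from -0.63 to -0.36 and from -0.27 to -0.12 with a library left out.

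In the test averaged over the 4 days, which weights the days equally and uses all 19 HNKO and 19 WT libraries, 4 of the 9 genes were called lower and 0 higher, where 17.3% of all genes were called lower and 19.2% higher. Those 4 were Otc, Hpd, Asl and Arg1. The median over the 9 genes was -0.29, beside -0.01 over all genes. Scaling by total counts alone moved the median of all genes to 0.19 and that of the 9 genes to -0.11, and with it 3 of the 9 genes remained called lower, while Arg1 did not (log2 fold change -0.16, adjusted p = 0.143). Of all genes 4.62% were called lower and 42.5% higher with that scaling.

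**Figure D1:**
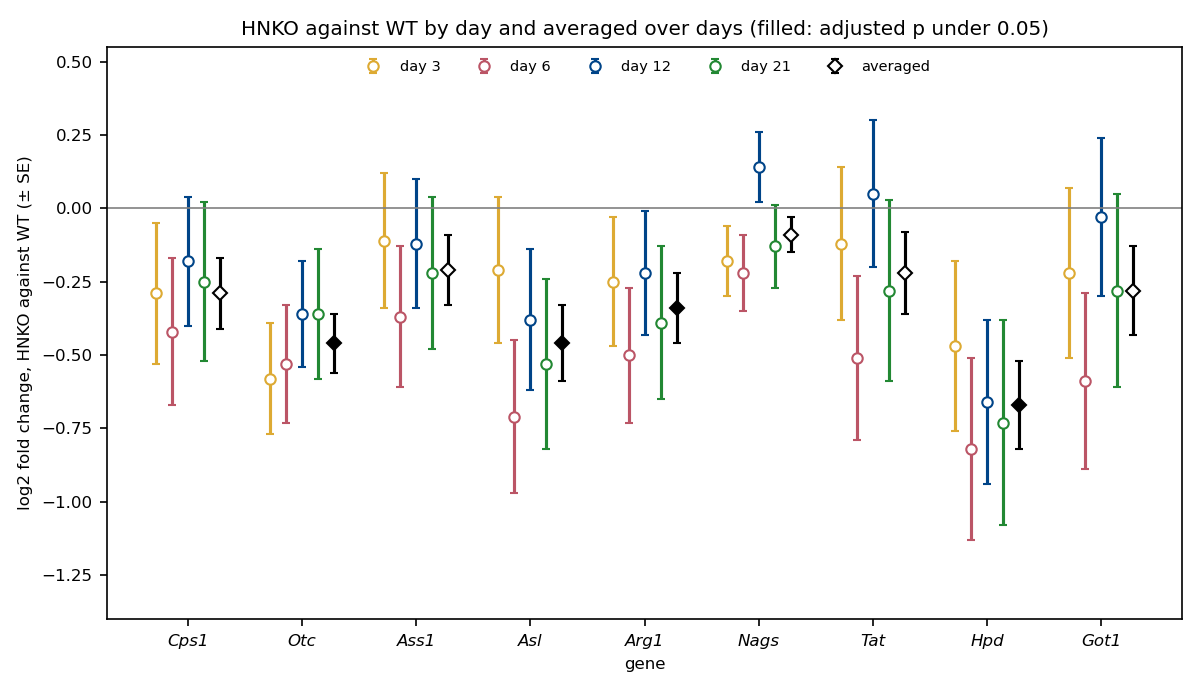
Log2 fold change of HNKO against WT (y axis, ± SE) for each of the 9 genes (x axis) at days 3, 6, 12 and 21 and averaged over days, with filled symbols for an adjusted p under 0.05. Only the averaged values of Otc, Asl, Arg1 and Hpd are filled, at -0.46, -0.46, -0.34 and -0.67.

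Otc, ornithine transcarbamylase, makes citrulline from ornithine and carbamoyl phosphate. On day 3 the log2 CPM of Otc was 8.77, 8.95, 9.05, 9.11 and 9.25 in the WT libraries and 7.69, 8.28, 8.42, 8.75 and 8.84 in the HNKO libraries. At day 6 it was 8.69, 8.91, 8.91 and 9 in WT and 7.56, 8.23, 8.36, 8.45 and 8.87 in HNKO. In each of these groups, 4 of 5 HNKO libraries lay below every WT library and 1 lay within the WT range. At day 12 the 6 HNKO libraries lay between 7.88 and 8.60, around a median of 8.39, and the WT libraries between 8.47 and 9.06, around 8.68. Day 21 gave 8.63 to 8.90 in WT and 7.99, 8.63 and 8.63 in HNKO. Below every WT library lay 3 of 6 HNKO libraries at day 12 and 2 of 3 at day 21. Log2 fold changes were -0.58 ± 0.19 (SE, adjusted p = 0.0593), -0.53 ± 0.20 (0.0696), -0.36 ± 0.18 (0.207) and -0.36 ± 0.22 (0.399) from day 3 to day 21. Averaged over days, Otc was lower by a log2 fold change of -0.46 ± 0.10 (a fold of 0.728, adjusted p = 0.000351). With total counts alone this value was -0.28 (adjusted p = 0.00937). Otc was called in each of the 38 fits that left out 1 library, and its day 21 value was -0.16 without HNKO 37.

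Asl, argininosuccinate lyase, releases arginine and fumarate. Its WT libraries had 8.69, 9, 9.14 and 9.18 log2 CPM at day 6, and its HNKO libraries 7.35, 7.87, 8.58, 8.61 and 8.68, so that each HNKO library lay below each WT library. The day 6 log2 fold change was -0.71 ± 0.26 (adjusted p = 0.0682). Among the 9 genes, 2 (Asl and Nags) had groups that did not overlap at day 6 and 1 (Hpd) at day 21, whereas 1.80%, 4.68%, 2.14% and 6.70% of all genes had every HNKO library below every WT library at days 3, 6, 12 and 21. At day 3 Asl split the HNKO libraries, with 7.35 and 7.36 in HNKO 2 and 23 and 8.40, 8.76 and 8.87 in the other 3, around a WT range of 8.16 to 8.72. The log2 fold changes at days 3, 12 and 21 were -0.21 ± 0.25, -0.38 ± 0.24 and -0.53 ± 0.29. That of day 3 was -0.05 without HNKO 2 or without HNKO 23, and that of day 21 was -0.28 without HNKO 37. Averaged over days Asl was lower, with -0.46 ± 0.13 (adjusted p = 0.00567), and with -0.28 (0.0328) under scaling by total counts alone.

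Arg1, arginase, cleaves arginine into urea and ornithine. Its day 6 log2 CPM was 10.28, 10.48, 10.71 and 11 in WT and 9.23, 9.81, 10.28, 10.44 and 10.58 in HNKO, so the upper HNKO libraries lay within the WT range. Log2 fold changes were -0.25 ± 0.22, -0.50 ± 0.23, -0.22 ± 0.21 and -0.39 ± 0.26 from day 3 to day 21, with adjusted p-values of 0.555, 0.166, 0.563 and 0.452. Averaged over days Arg1 was lower by -0.34 ± 0.12 on the log2 scale (adjusted p = 0.0206). Without HNKO library 37 of day 21 it was no longer called (-0.27, adjusted p = 0.0862), and the day 21 value was then -0.14. The values of days 3 and 6 were -0.10 without HNKO 23 and -0.31 without HNKO 29.

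Cps1 had log2 fold changes of -0.29 ± 0.24, -0.42 ± 0.25, -0.18 ± 0.22 and -0.25 ± 0.27, and -0.29 ± 0.12 averaged over days (adjusted p = 0.0672). At day 6 the 4 WT libraries lay within 12.88 to 13.06 log2 CPM and the HNKO libraries at 11.61, 12.37, 12.57, 12.75 and 13.05, and 4 of 5 were below all WT. DESeq2 called the averaged difference of Cps1 (adjusted p = 0.046), which was -0.11 (0.406) with total counts alone. The Cps1 values of days 3, 6 and 21 were -0.12 without HNKO 2, -0.23 without HNKO 29 and -0.05 without HNKO 37. Ass1, argininosuccinate synthetase, gave -0.11 ± 0.23, -0.37 ± 0.24, -0.12 ± 0.22 and -0.22 ± 0.26, and -0.21 ± 0.12 averaged (adjusted p = 0.181), or -0.03 with total counts alone. With a library left out, the Ass1 values ranged from -0.23 to 0.04, -0.48 to -0.18, -0.17 to -0.03 and -0.33 to -0.06 at the 4 days. The upper ends came without HNKO 23, HNKO 29, WT 15 and HNKO 37. Of the 51-base stretches of its transcripts, 38.4% also occur in Gm5424, to which a median of 457 counts were assigned where Ass1 had 39365.5, so the share of reads between the pair is uncertain.

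Nags is the N-acetylglutamate synthase. At day 6 all HNKO libraries were within 5.22 to 5.37 log2 CPM, below the WT range of 5.42 to 5.72, with a log2 fold change of -0.22 ± 0.13 (adjusted p = 0.293). At day 12 the HNKO libraries reached from 4.98 to 5.89 and the WT libraries from 4.97 to 5.48 (0.14 ± 0.12, adjusted p = 0.482). Its averaged value was -0.09 ± 0.06 (adjusted p = 0.27), and was 0.10 with scaling by total counts alone. An antisense gene, Gm11586, overlaps Nags with a median of 17 counts. Whether counting used the strand is not given in the sources used here.

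Hpd, 4-hydroxyphenylpyruvate dioxygenase, carries out the second step of tyrosine breakdown, and it had the lowest averaged log2 fold change of the 9 genes. Its day 21 log2 CPM was 10.46, 10.52, 10.54, 10.84 and 10.87 in WT and 9.32, 9.94 and 10.34 in HNKO, without overlap. At day 6 the WT libraries had 11.08, 11.12, 11.60 and 11.89 and the HNKO libraries 9.32, 10.31, 10.84, 10.96 and 11.15. At day 12 the HNKO libraries lay between 10.12 and 10.87, around a median of 10.54, and the WT libraries between 10.57 and 11.66, around 11.24, so that the upper HNKO libraries overlapped the lowest WT library. Log2 fold changes were -0.47 ± 0.29 (adjusted p = 0.376), -0.82 ± 0.31 (0.0767), -0.66 ± 0.28 (0.132) and -0.73 ± 0.35 (0.255), and -0.67 ± 0.15 averaged over days (a fold of 0.629, adjusted p = 0.000831). It was called in each of the 38 fits that left out 1 library, and the day 3 and day 21 values were -0.29 without HNKO 23 and -0.48 without HNKO 37. Psmd9, on the opposite strand, overlaps Hpd with a median of 945.5 counts, where Hpd had 49321.

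Tat, the tyrosine aminotransferase of the step before, did not pass the test averaged over days, at -0.22 ± 0.14 (adjusted p = 0.235), or -0.13 without HNKO 37 and -0.04 with total counts alone. Its daily values were -0.12 ± 0.26, -0.51 ± 0.28, 0.05 ± 0.25 and -0.28 ± 0.31. With a library left out, the Tat values ranged from -0.24 to 0.04, -0.68 to -0.23 (the latter without WT 10), -0.06 to 0.15 and -0.77 to 0.02. In WT alone its log2 CPM ranged from 9.32 to 11 and in HNKO from 8.73 to 10.76, and the groups overlapped at each day. Got1, the cytosolic aspartate aminotransferase, gave -0.22 ± 0.29, -0.59 ± 0.30, -0.03 ± 0.27 and -0.28 ± 0.33, and -0.28 ± 0.15 averaged (adjusted p = 0.148), or -0.10 with total counts alone. With a library left out, the Got1 values ranged from -0.35 to -0.07, -0.78 to -0.38, -0.15 to 0.09 and -0.63 to 0 at the 4 days. The upper ends of days 3, 6 and 21 came without HNKO 23, HNKO 29 and WT 41. At day 6, 4 of 5 HNKO libraries were below all WT libraries for Got1, and at day 12 none was.

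**Figure D2:**
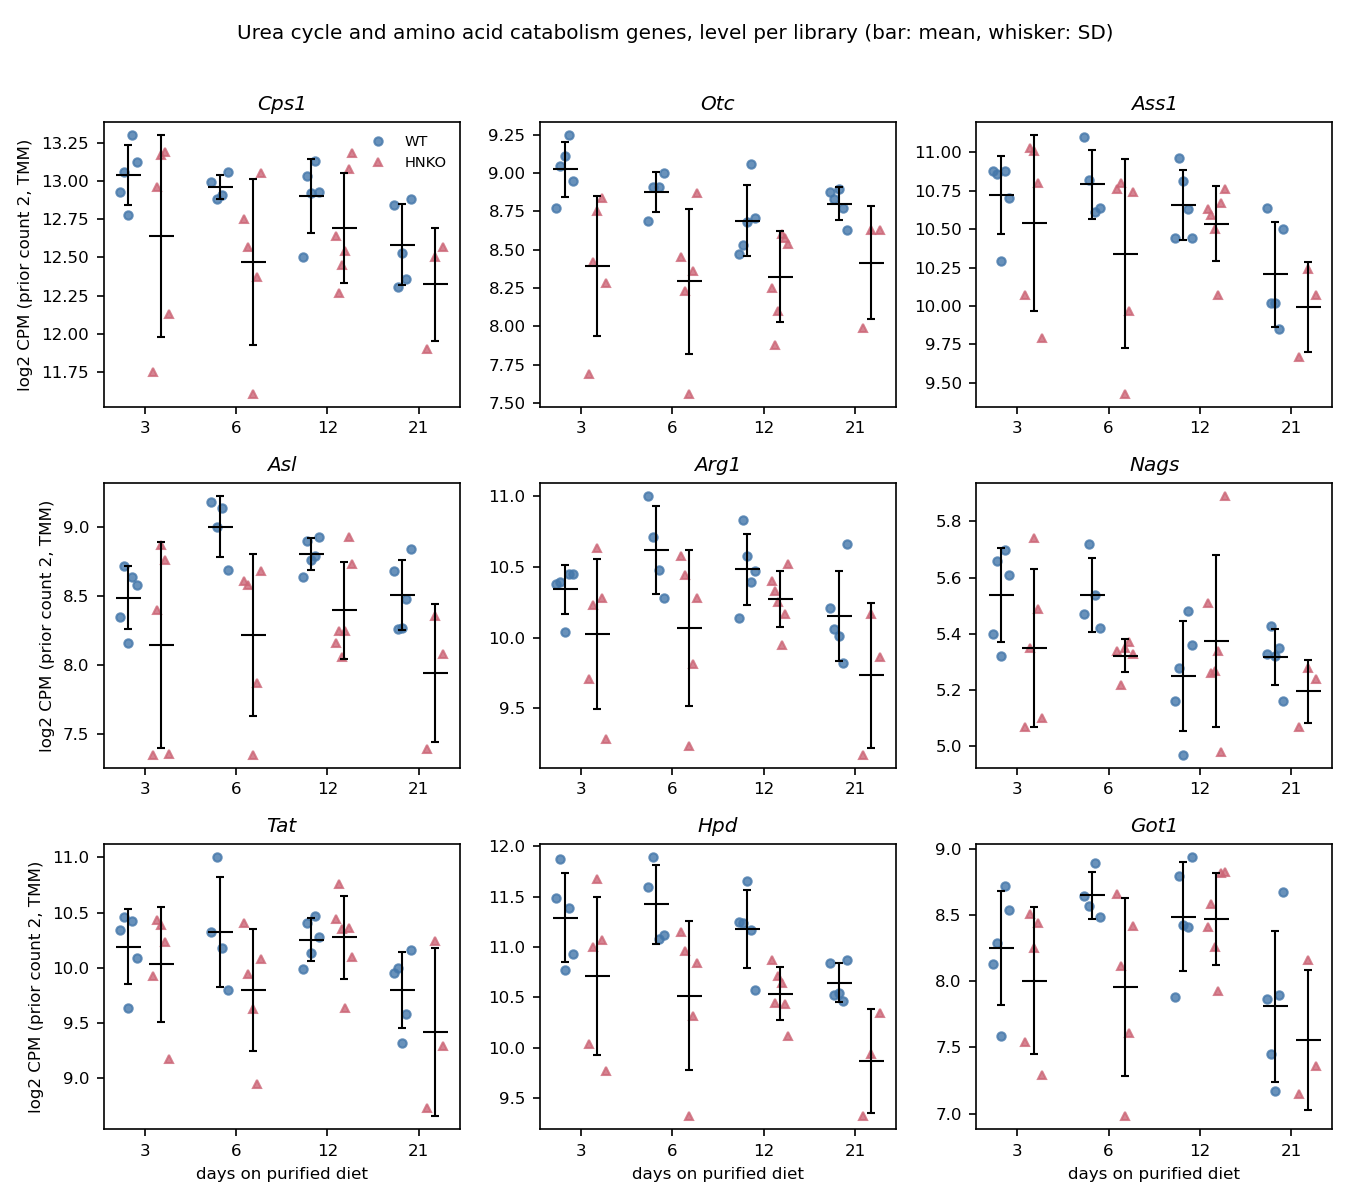
Log2 CPM (y axis, a scale of its own for each gene) in each library by days on PD (x axis), with circles for WT, triangles for HNKO, and bars and whiskers for the mean and SD. For Otc, the lowest HNKO libraries of days 3 and 6 lie at 7.69 and 7.56, below every WT library, while 1 HNKO library of each of these days lies within the WT range.

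Single genes and days were also compared without a model. Exact permutation tests of the difference of mean log2 CPM (two-sided, 36 tests) gave p-values down to 0.0159 for Otc at day 3 and for Asl and Nags at day 6, 0.0173 for Hpd at day 12 and 0.0357 for Hpd at day 21. After adjustment over the 36 tests the lowest was 0.156. The smallest p that the group sizes allow is 0.00794, 0.0159, 0.00433 and 0.0357 at days 3, 6, 12 and 21.

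The genotype difference was not shown to depend on the day. When the interaction of genotype with day was tested, 0 of the 9 genes were called, with a lowest unadjusted p of 0.164 for Nags, and 0% of all genes were called by edgeR, with 4.76% at an unadjusted p under 0.05 (DESeq2 called 16 genes). Within WT, days 3 to 21 differed for 0 of the 9 genes (lowest adjusted p = 0.248), where 5.84% of all genes were called, and within HNKO for 0 of 9 (0.253), where 7.90% were called. An unadjusted p under 0.05 was reached by 0 of the 9 in each of these 3 tests, where 21.2% of all genes reached it for days within WT and 22.9% within HNKO. Hpd had mean log2 CPM of 11.29, 11.42, 11.18 and 10.65 in WT and 10.71, 10.52, 10.54 and 9.87 in HNKO in order of days, and Got1 8.26, 8.65, 8.49 and 7.82 in WT.

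For most of the 9 genes the HNKO libraries were spread more widely than the WT libraries. The SD of log2 CPM was larger in HNKO than in WT for 9, 8, 6 and 7 of the 9 genes at days 3, 6, 12 and 21, beside 51.5%, 52.5%, 45.4% and 49.4% of all genes. The median SD over the 9 genes was 0.56 in HNKO and 0.23 in WT at day 3, and 0.30 and 0.23 at day 12. Whole libraries were low. Averaged over the 9 genes, and relative to the WT mean of the same day, HNKO 2 and 23, both fed for 3 days, stood at -0.86 and -0.97, HNKO 29 and 30, fed for 6 days, at -1.3 and -0.84, and HNKO 37, fed for 21 days, at -0.83. The other 14 HNKO libraries lay between -0.42 and 0.18, and the WT libraries between -0.35 and 0.28. HNKO 37 was the lowest of its group for 9 of the 9 genes and HNKO 29 for 7.

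Other measures stood apart in these 5 libraries to different degrees. Spp1, which encodes osteopontin and is listed with the cholangiocyte markers, had 8.57, 8.49, 9.51, 8.15 and 8.86 log2 CPM in HNKO 2, 23, 29, 30 and 37, against 6.53 to 8.11 in the other HNKO and 4.85 to 5.34 in the WT libraries. Col1a1, a collagen gene of stellate cells and myofibroblasts, had 6.33, 6.46, 7.56, 5.87 and 7.17, against 2.94 to 6.44 in the other HNKO libraries, so that HNKO 7 (6.44) lay above HNKO 2 and 30 and HNKO 13 (5.97) above HNKO 30. The acute phase genes Lcn2 and Saa2 did not set these 5 apart, with 6.86 and 5.70 in HNKO 2 and 8.30 and 7.65 in HNKO 3. The hepatocyte markers averaged -0.21, -0.54, -0.70, -0.26 and -0.37 relative to the WT mean, smaller shifts on average than those of the 9 genes. In the other HNKO libraries they averaged -0.23 to 0.10, a range that holds the value of HNKO 2. Single markers of this list differed, with day 6 log2 fold changes from -0.67 to 0.56. Alb had 16.11, 15.65, 15.38, 15.91 and 15.91 log2 CPM in these 5 libraries and 15.88 to 16.50 in the other HNKO libraries. In WT it had 16.50 to 16.61 at day 3, 16.47 to 16.65 at day 6 and 16.02 to 16.86 at day 21. In HNKO 2, 23, 29, 30 and 37 the TMM factors were 1.12, 1.22, 1.24, 1.09 and 1.23. They were 0.95 to 1.13 in the other HNKO and 0.86 to 1.05 in the WT libraries. HNKO 3 had 8.11 for Spp1 and a mean of -0.06 over the 9 genes, so the order was not the same throughout. The part of cell composition in these values was not tested.

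**Figure D3:**
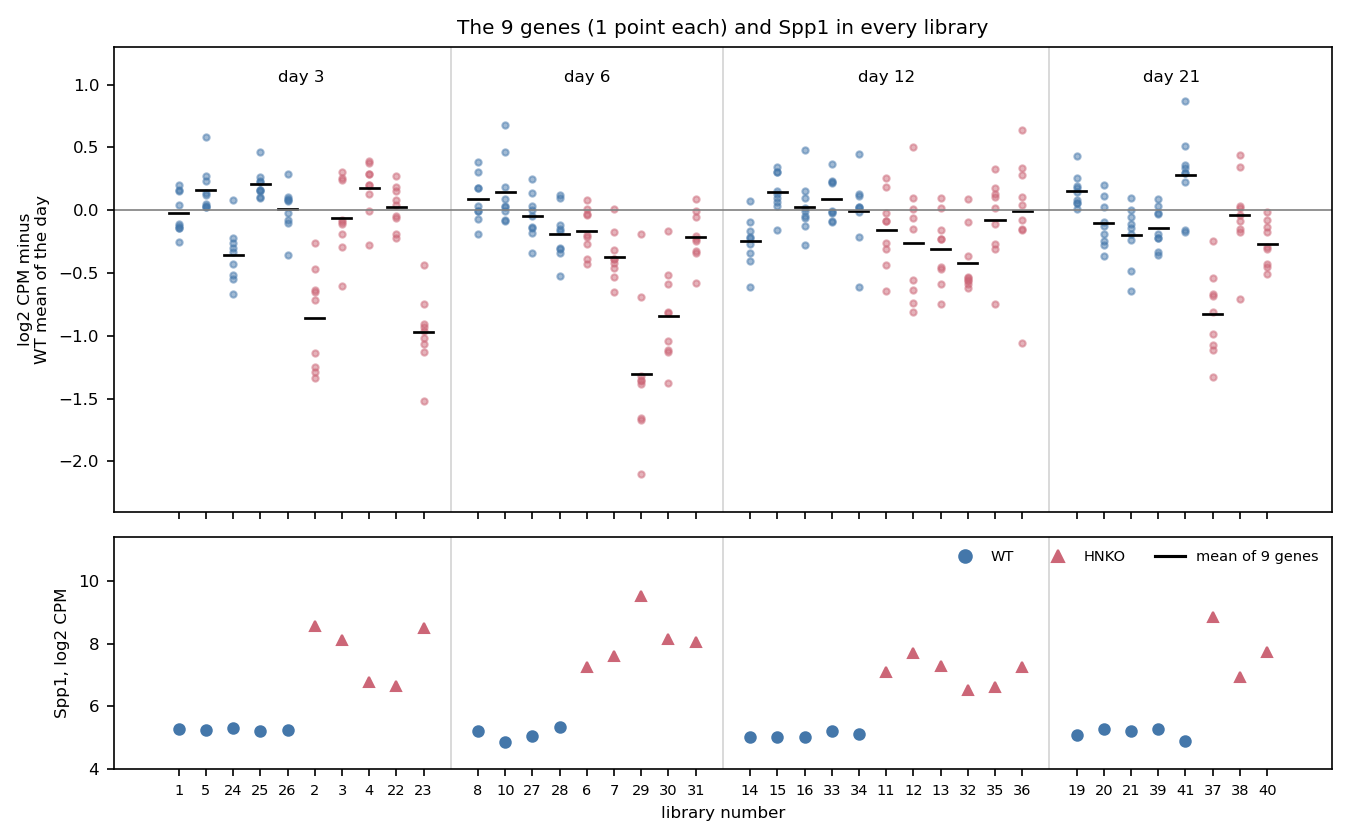
Top, log2 CPM of the 9 genes (1 point each) minus the WT mean of the same day (y axis) in each of the 38 libraries (x axis, library number), with black bars for the mean of the 9. Bottom, log2 CPM of Spp1 in the same libraries. The 5 lowest means, -0.83 to -1.3, are HNKO 2, 23, 29, 30 and 37, whose Spp1 was 8.15 or higher.

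The deviations of the 9 genes were positively correlated in each pair. Over 38 libraries, the correlation of their deviations from the group mean (Pearson's r, as a description, since the values share libraries and scaling) ranged from 0.17 for Otc with Tat to 0.91 for Ass1 with Arg1 over the 36 pairs, with a median of 0.66. Spearman's rho ranged from 0.18 to 0.88, with a median of 0.60, and was lower than r for Otc with Ass1 (0.29 against 0.45), Arg1 (0.26 against 0.42) and Hpd (0.29 against 0.49). The median absolute r of the 9 genes with all tested genes was 0.22. The r of Nags with the other 8 genes was 0.24 to 0.43. Among all genes, those most like Cps1 were Asl (0.898) and Hal (0.894), those most like Asl were Gnmt (0.933) and Gls2 (0.905), and Ass1 went with Arg1 (0.912) and Gnmt (0.899). Arg1 went with Ass1 and then Ndufb9 (0.889). Hpd went with Fah (0.948) and Gstz1 (0.933), which act after it in tyrosine breakdown. Otc went with Sephs2 (0.928) and Mdh1 (0.908), Got1 with Hgd (0.836) and Aldh1l1 (0.829), Tat with Gm44421 (0.844) and Noct (0.783), and Nags with Mtmr4 (0.697) and Mocs1 (0.69).

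**Figure D4:**
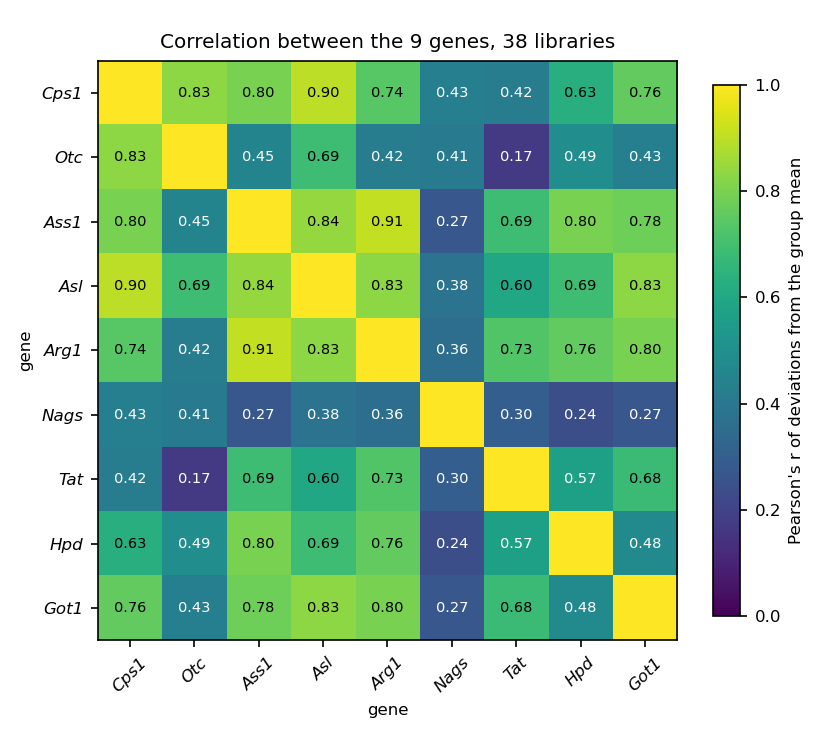
Pearson's r between pairs of the 9 genes (both axes) of log2 CPM deviations from the group mean over 38 libraries, with colour from 0 to 1. Ass1 with Arg1 (0.91) and Cps1 with Asl (0.90) are the highest pairs, and the pairs with Nags stay at or below 0.43.

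Around these genes, 76 further genes of amino acid metabolism in 8 lists were tested, and they were also mostly lower. Averaged over days, 53 of the 76 were called lower and 4 higher, with a median of -0.33 (-0.01 over all genes, with 17.3% called lower and 19.2% higher). At days 3, 6, 12 and 21, 9, 29, 4 and 1 of the 76 were called lower, against 1.71%, 4.37%, 3.27% and 0.916% of all genes, so that the counts of days 12 and 21 were near the share over all genes. At day 6, 1 was called higher, against 8.42% of all genes. With scaling by total counts alone 5, 11, 1 and 1 were called lower (0.665%, 1.1%, 0.739% and 0.276% of all genes) and 0, 3, 1 and 1 higher, against 8.16%, 14.5%, 10.5% and 5.7% of all genes. That scaling left 31 called lower and 8 higher in the averaged test, against 4.62% and 42.5% of all genes, and the 31 were all among the 53. The median then lay at -0.14 where that of all genes was 0.19. The number of genes called lower in the averaged test was 5 of 9 for the urea cycle, 7 of 8 for phenylalanine and tyrosine, 11 of 12 for tryptophan, histidine and lysine, 16 of 17 for branched-chain amino acids, 9 of 13 for serine, glycine and threonine, 3 of 10 for ammonia and glutamine, 3 of 8 for methionine and cysteine, and 3 of 8 for proline, ornithine and arginine. With total counts alone these counts became, in the same order, 3, 3, 6, 11, 6, 1, 2 and 2. Both sets of counts include the 9 genes where a list holds them.

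Car5a, the mitochondrial carbonic anhydrase that gives CPS1 its bicarbonate, was lower at day 3 (-0.72 ± 0.21, adjusted p = 0.0371) and day 6 (-0.72 ± 0.22, 0.0256). Slc25a13, which exports aspartate from mitochondria for ASS1, was lower at day 6 (-0.55 ± 0.15, adjusted p = 0.0135). In tyrosine breakdown, Gstz1 was lower at day 6 by -0.51 ± 0.16 (adjusted p = 0.0353), as was Pcbd1, which recycles the cofactor of phenylalanine hydroxylase, by -0.37 ± 0.11 (0.0312). Afmid of tryptophan breakdown was lower at day 3 (-0.90 ± 0.25, adjusted p = 0.0306) and day 6 (-0.95 ± 0.26, 0.0134). In lysine and tryptophan breakdown Gcdh (-0.63, adjusted p = 0.014) and Aadat (-0.74, 0.0277) were lower at day 6, and Dhtkd1 at day 3 (-0.73, 0.0499).

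Among branched-chain amino acid genes, Dld, the lipoamide dehydrogenase of several mitochondrial complexes, was lower at days 6, 12 and 21 (-0.37, -0.47 and -0.52, adjusted p = 0.0121, 0.00265 and 0.00945). Hibch of valine breakdown was lower at days 3, 6 and 12 (-0.55, -0.56 and -0.49, adjusted p = 0.0207, 0.0102 and 0.0208), and Hibadh (-0.56, 0.0118) and Aldh6a1 (-0.63, 0.00657) at day 6. Dmgdh, which demethylates dimethylglycine, was lower at days 3, 6 and 12, most at day 6 (-0.80 ± 0.14, adjusted p = 0.000393). Amt of the glycine cleavage system was lower at days 3 and 6 (-0.29 and -0.38, adjusted p = 0.0454 and 0.00487). At day 6 Sardh (-0.78, 0.0192) and Shmt1 (-0.59, 0.0327) of glycine and one-carbon metabolism were lower too. Cdo1, cysteine dioxygenase, was lower at days 3, 6 and 12 (-0.61, -0.68 and -0.55), and Ahcy (-0.82, adjusted p = 0.0422), Aldh4a1 (-0.53, 0.0174) and Got2 (-0.41, 0.0123), the mitochondrial partner of Got1, at day 6. With scaling by total counts alone, Dhtkd1 and Amt lost their call at day 3, Hibch, Dmgdh and Cdo1 theirs at day 12, and Slc25a13, Got2, Pcbd1, Gstz1, Dld, Hibadh, Amt, Shmt1, Ahcy and Aldh4a1 theirs at day 6, each still below 0.

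Asns, asparagine synthetase, went the other way, with a log2 fold change of 2.89 ± 0.67 at day 6 (adjusted p = 0.00402) and 1.67 ± 0.31 averaged over days (6.67e-05). The other 3 genes called higher in the averaged test, named after their values were seen, were Aldh18a1 of proline synthesis (0.76 ± 0.20, adjusted p = 0.00231), Csad of taurine synthesis (0.50 ± 0.19, 0.0391) and Gatm of creatine synthesis (0.23 ± 0.07, 0.00702).

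**Figure D5:**
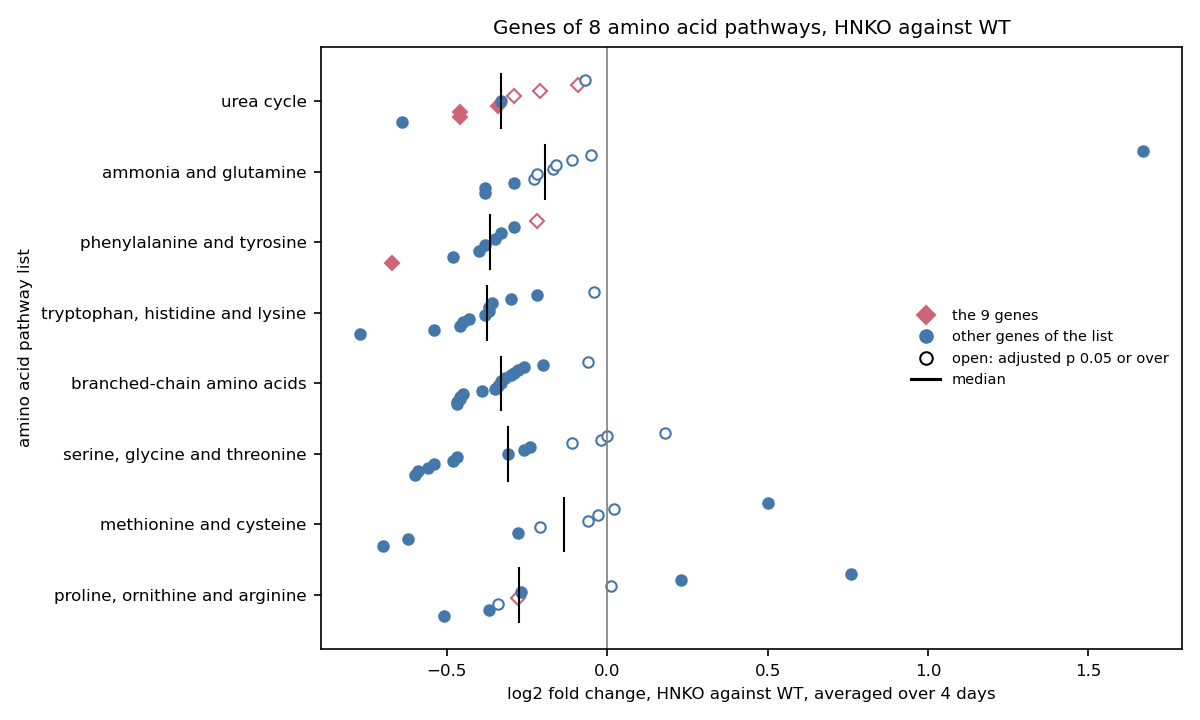
Log2 fold change of HNKO against WT averaged over the 4 days (x axis) for genes of 8 amino acid lists (y axis), with diamonds for the 9 genes, circles for other genes, filled symbols for an adjusted p under 0.05 and a line at the median of each list. Most genes lie left of 0, with list medians from -0.38 to -0.14, and Asns lies to the right at 1.67.

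Of 9 known regulators of these genes, 5 were called lower averaged over days and 0 higher, where 17.3% of all genes were called lower and 19.2% higher. The 5 were Cebpa (-0.29 ± 0.08, adjusted p = 0.00461), Nr3c1, the glucocorticoid receptor (-0.20 ± 0.06, 0.00383), Gcgr, the glucagon receptor (-0.15 ± 0.05, 0.0243), Ppargc1a (-0.35 ± 0.09, 0.00392) and Foxo1 (-0.18 ± 0.06, 0.0219). In the averaged test with total counts alone none of the 9 regulators was called, where 4.62% of all genes were called lower. Gcgr and Foxo1 then had 0.04 and 0.01, beside a median of 0.19 over all genes. Hnf4a (-0.17, adjusted p = 0.0812), Klf15 (-0.28, 0.0769), Cebpb (0.03, 0.908) and Onecut1 (-0.10, 0.77) did not pass the test. With TMM, single days gave a call for Cebpa at day 3 (-0.57 ± 0.15, adjusted p = 0.0282) and Ppargc1a at day 6 (-0.61 ± 0.19, 0.0296). With total counts alone the call of Cebpa at day 3 was kept (-0.41, adjusted p = 0.0385) and that of Ppargc1a was lost (0.105). The mitochondrial sirtuins use NAD+ to modify enzymes of mitochondria, CPS1 and OTC among them. Sirt3 was lower at days 3 and 6 (-0.52 ± 0.12 and -0.48 ± 0.13, adjusted p = 0.0136 and 0.0119, the latter 0.0877 with total counts alone), Sirt4 in the averaged test (-0.19 ± 0.06, 0.0187, and 0 with total counts alone), and Sirt5 had -0.10 ± 0.06 (adjusted p = 0.202, and 0.10 with total counts alone).

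Markers of the liver zones and of other cells are read against the 17.3% of all genes called lower and 19.2% called higher averaged over days. Of 6 periportal markers 2 were called lower averaged over days, with a median of -0.16 (0.02 with total counts alone, and none called), and of 6 pericentral markers also 2, with a median of -0.30 (-0.11 with total counts alone, and the same 2 called). Of 7 hepatocyte markers 2 were called lower, with a median of -0.17 (0.02 with total counts alone). Of 5 endothelial markers 1 was called lower, of 6 macrophage markers 4 higher and of 5 other leukocyte markers 3 higher, with medians of 0, 0.27 and 0.65. With total counts alone, where 42.5% of all genes were called higher and the median of all genes was 0.19, the endothelial markers had 0 called lower and 3 higher, with a median of 0.19, and 6 macrophage and 4 other leukocyte markers were called higher. Of 6 acute phase genes 5 were called higher averaged over days, with a median of 2.83. Of 8 clock genes 0 were called by edgeR averaged over days, with a median of -0.29 (-0.08 with total counts alone), and their summed level ranged from 6.81 to 9.35 log2 CPM over the WT libraries. By day their medians were -0.58, -0.37, 0.18 and 0.05, with 0 called at each. At day 3 the clock gene Dbp was 3.22 to 4.06 log2 CPM in HNKO and 4.57 to 5.94 in WT libraries. In HNKO 29 it was 1.35, where the other HNKO libraries of day 6 had 5.97 to 6.79 and the WT libraries 2.84 to 7.32. Whether zonation, inflammation or time of day had a part in the values of the 9 genes was not tested.

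The libraries carry numbers from 1 to 21 and from 22 to 41, and the meaning of the gap is not given in the sources used here. Within each series of numbers, 60 of the 63 differences in mean log2 CPM between HNKO and WT lay below 0, between -1.02 and 0.34, and those of Cps1, Otc, Ass1, Asl, Arg1 and Hpd did so in 7 of 7 cases. The used HNKO libraries of day 21 come from 1 series only. Libraries 17 and 18, left out, had log2 CPM of 8.68 and 8.54 for Otc, 9.97 and 10.05 for Hpd, 8.27 and 8.15 for Asl and 9.64 and 9.75 for Arg1, within the range of the 3 used HNKO libraries of day 21 except for Otc in library 17, which was above it. For the other 5 genes library 17 lay above that range, with 12.67 for Cps1, 10.27 for Ass1, 5.34 for Nags, 10.33 for Tat and 8.33 for Got1. Library 18 lay above it for Cps1 (12.60) and Nags (5.52) and within it for Ass1 (10.23), Tat (9.79) and Got1 (7.97). The values of libraries 17 and 18 come from a scaling of all 40 libraries and the range from that of the 38. Placements close to an end of the range are therefore uncertain, as for Ass1, whose highest used HNKO library of day 21 had 10.24. With both in the fit, 4 of the 9 genes were called averaged over days, and the median of the 9 at day 21 was -0.13 in place of -0.28.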

How the data were processed

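Liver RNA of 19 WT and 19 HNKO mice was analysed from 1 table of raw counts per gene, which the authors deposited without normalization. The authors aligned 51-bp paired-end reads to GRCm38 with STAR 2.7.2b and counted fragments with both ends aligned on GENCODE M22 genes with featureCounts 1.6.4. Genes were filtered with edgeR (minimum count 10, minimum total count 15, minimum proportion 0.7), scaled by TMM, and tested by the quasi-likelihood method of edgeR 4.0.16 in R 4.3.3 (legacy computation), with a mean for each of the 8 groups, with Benjamini-Hochberg adjustment over 20297 genes. Log2 CPM used a prior count of 2. Standard errors are those implied by the test statistic. Each numbered library was taken as 1 mouse, so p-values measure the spread between these libraries. Total counts had a median of 26466478.5.

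The 9 genes and all lists were chosen with earlier results of these data known. Besides the 9 genes, Nampt, 9 regulators and 3 sirtuins, up to 4 genes per pathway list were named, those called at 1 or more days with the smallest averaged p, and for each of the 9 genes the 2 with the highest r. Of the listed genes, Glul and Tf were not analysed here and Slc38a5 did not pass the filter. Alternatives were DESeq2 1.42.0, other scaling, filters, libraries, dispersion and covariate, and each library left out in turn. On simulated counts of 19879 genes with 200 changed by a log2 fold change of 2, the edgeR test recovered 98.5%, 99%, 98.5% and 97% at days 3, 6, 12 and 21 and 100% averaged. The single-day changes of the 9 genes were smaller (-0.82 to 0.14), and recovery of changes of that size was not tested. Permutation tests used scipy 1.17.1, and figures matplotlib 3.10.9. Promoter sequences are from RefSeq.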

Additional observations from a re-analysis of the deposited data

Results flagged for a closer look

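In 63 groups of 4 to 6 libraries (1 gene in 1 genotype and day), 3 had a library far from the others by Dixon's criterion, and chance alone flags about 1 in 20 groups. Ass1 in HNKO at day 12 was 10.07 log2 CPM in library 32, with the next library at 10.5. Arg1 in WT at day 3 was 10.04 in library 24, with the next at 10.38. Nags in HNKO at day 6 was 5.22 in library 7, with the next at 5.33. WT library 24 was also the lowest of its group for 8 of the 9 genes.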

How the results depend on the processing

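The 4 genes called averaged over days ranged from 3 to 5 when 1 library was left out and from 3 (total counts alone) to 5 (DESeq2, with Cps1) under the other settings. Otc, Hpd and Asl were called in all 38 fits with 1 library left out and in all 8 other settings, and Arg1 in 37 and 7. At day 3, the count of 0 genes became 1 with DESeq2 and ranged from 0 to 1 with a library left out (1, Otc, without HNKO 4 or HNKO 22). At day 6, it became 1 with DESeq2 (Asl) and 2 with the series of library numbers as a covariate (Otc and Hpd), and ranged from 0 to 2 with a library left out (1 without HNKO 6, 2 without HNKO 31). With total counts alone, directions turned for Ass1 at day 3 (0.03), Tat at day 3 (0.02), Cps1 at day 12 (0.02), Ass1 at day 12 (0.09), Got1 at day 12 (0.18), Nags at day 21 (0.07) and Nags averaged (0.10), none of them called. Leaving out a library turned the direction of Ass1 at day 3 (-0.23 to 0.04) and Tat at day 3 (-0.24 to 0.04), both without HNKO 23, of Tat at day 12 (-0.06 to 0.15), Got1 at day 12 (-0.15 to 0.09) and Tat at day 21 (-0.77 to 0.02, without HNKO 37), none called, and took Got1 at day 21 to 0 (-0.63 to 0, without WT 41). Total counts alone also moved the share of called genes that were lower from 36.7%, 34.2%, 41.8% and 29.3% at days 3, 6, 12 and 21 to 7.53%, 7.03%, 6.6% and 4.62%. Over all genes, 945, 2596, 1588 and 634 were called at the 4 days, 331, 1321, 624 and 1350 with all 40 libraries and 420, 1325, 867 and 660 with the 2 groups of the day alone. DESeq2 called 1428 and 994 genes at days 3 and 21, and total counts alone 1792 and 1212. The lowest counts with a library left out were 322 (without HNKO 23), 1126 (HNKO 29), 852 (WT 15) and 13 (HNKO 37). The values averaged over days under each setting and the pathway lists under other scaling were added after seeing the data. No paired analysis was made, since the labels give no litter that would link WT and HNKO mice. The causes of these changes were not tested. With 3 to 6 libraries a group, the SE of a single day's log2 fold change for the 9 genes was 0.12 to 0.35.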
